A study of Mus musculus with 21 samples.

Results

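Cells of the stromal vascular fraction of mouse inguinal fat that had been passaged once and grown for 28 days afterwards (P1 day 28, 3 libraries) were compared with cells kept for 28 days in primary culture without passage (P0 day 28, 3 libraries). The stromal vascular fraction is the mixture of stromal, vascular and immune cells left when digested fat is freed of its adipocytes. The 6 libraries were chosen by their labels out of 21, the other 15 being P0 cells of days 0, 3, 7, 14 and 21. Both groups came from female C57BL/6J mice 8 to 12 weeks old, from fat without its lymph nodes, and no transgene, deletion or drug is named for either. The primary cells were seeded in a growth medium of Iscove's medium with 10% fetal bovine serum, glutamine, antibiotics and 2-mercaptoethanol, and no other medium is named after passage. P1 cells descend from P0 cells of day 28, so they had also been in culture for longer. Passage and culture time cannot be told apart here, because the samples used here hold no unpassaged cells of that age. Whether replicates are separate mice or separate dishes is not stated, and the p-values therefore rest on library-to-library spread alone, which may be technical.

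Fresh stromal vascular fraction holds fibroblast-like progenitors of adipocytes, endothelial and mural cells, and leukocytes, above all macrophages. Macrophages adhere tightly to culture plastic, and they are marked by lysosomal proton pumps, secreted proteases and transcription factors of the interferon response. Fibroblast-like cells secrete collagen, carry caveolae in their membranes and contract through actin and tropomyosin. When a culture is passaged, the cells are lifted from the dish and seeded again, and those that reattach and divide make up the next culture.

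The unit of level used throughout is the scaled read, a read count multiplied by 1 factor for each library, which is not adjusted for gene length. Values at 16 stand for no read, and values at 30 are a floor that hides anything lower. Gene symbols could be used in 4 regions, of chromosomes 4, 6, 9 and 15, and for the mitochondrial genome. There, 436 of 535 protein-coding genes (81.5%) exceeded the floor in some library of the series, against 43.9% of 15656 protein-coding genes elsewhere, and symbols from elsewhere were not used. A gene was called when its adjusted p was under 0.05 in limma.

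Of 7768 gene models tested, 1144 (14.7%) were called, 144 of them (1.85%) higher and 1000 (12.9%) lower in P1 cells than in P0 cells of day 28. Without P0 day 28 replicate 3 the number was 748, and in a fit of the 6 libraries alone it was 528 (6.8%), with 53 higher (0.682%) and 475 lower (6.11%). The surplus of lower calls moves with the scaling. Over 3173 gene models above the floor in every library, the median log2 fold change was -0.27 with the values as deposited, 0.06 after quantile normalization and 0.06 after median scaling. Quantile normalization gave 860 calls (11.1%), 420 higher (5.41%) and 440 lower (5.66%), and median scaling gave 785 (10.1%), 411 higher (5.29%) and 374 lower (4.81%). Against P0 cells of day 21 the same P1 libraries gave 1075 calls (13.8%), 116 higher (1.49%) and 959 lower (12.3%). Under all 3 scalings, 143 gene models (1.84%) were called higher and 359 (4.62%) lower. In the regions where genes can be named, 417 were tested and 158 (37.9%) were called, 17 higher (4.08%) and 141 lower (33.8%), of which 17 and 52 were called under all 3 scalings. Every P1 library lay below every P0 library of day 28 in 22.9% of the gene models tested, and above in 3.22%. Correlations of log2 levels across the gene models tested lay between 0.953 and 0.955 among the P1 libraries, between 0.937 and 0.951 among the P0 libraries of day 28, and between 0.905 and 0.933 across the groups. P1 libraries held 2753381 to 3714277 reads above the floor and P0 libraries of day 28 held 3255932 to 3994628.

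Genes of myeloid leukocytes were among the largest falls, and genes of matrix-degrading proteases were also lower. The promoter stretches of 4 such genes are shown because each holds one of a pair of motifs known from these gene classes. GAGGAA is the core bound by PU.1, an ETS-family factor of macrophages, and TGAGTCA is the site of AP-1, long studied in collagenase and stromelysin promoters. Each line gives the 250 bases before the gene's start in RefSeq on GRCm38.p6, 5′ to 3′ on the strand of the gene, with every match on either strand in capitals (TTCCTC and TGACTCA are the matches read from the other strand).
Cd72 (chr4:43454627-43454876, minus strand): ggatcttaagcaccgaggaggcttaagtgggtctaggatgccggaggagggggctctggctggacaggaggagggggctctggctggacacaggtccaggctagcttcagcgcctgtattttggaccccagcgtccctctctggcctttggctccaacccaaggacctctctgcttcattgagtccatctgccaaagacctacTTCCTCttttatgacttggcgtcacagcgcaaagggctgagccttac
Mmp8 (chr9:7558179-7558428, plus strand): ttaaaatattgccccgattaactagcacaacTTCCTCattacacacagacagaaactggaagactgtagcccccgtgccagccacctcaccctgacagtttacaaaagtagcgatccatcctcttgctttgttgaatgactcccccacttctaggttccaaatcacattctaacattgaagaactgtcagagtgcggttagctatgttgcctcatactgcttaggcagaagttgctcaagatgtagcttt
Mmp3 (chr9:7445572-7445821, plus strand): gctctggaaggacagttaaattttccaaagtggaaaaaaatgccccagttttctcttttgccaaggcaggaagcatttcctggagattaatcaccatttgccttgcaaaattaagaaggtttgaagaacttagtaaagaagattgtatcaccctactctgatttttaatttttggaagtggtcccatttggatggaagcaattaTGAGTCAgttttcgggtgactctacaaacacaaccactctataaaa
Mmp13 (chr9:7272264-7272513, plus strand): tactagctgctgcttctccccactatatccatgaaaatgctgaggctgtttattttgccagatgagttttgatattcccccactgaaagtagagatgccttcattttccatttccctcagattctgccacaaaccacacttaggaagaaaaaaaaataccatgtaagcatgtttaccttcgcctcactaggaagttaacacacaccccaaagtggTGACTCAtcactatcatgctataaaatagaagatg
The promoters of Cd72 and Mmp8 each held 1 GAGGAA and no TGAGTCA, and those of Mmp3 and Mmp13 each held 1 TGAGTCA and no GAGGAA. That each of these 4 windows holds only 1 of the 2 motifs follows from how they were picked. The window of Mmp10, which was not called, held both motifs. Those of Otulinl, Tfec, Irf5 and Mmp27, all called lower, held neither. Over 32851 promoter windows of the same length, 23.3% held GAGGAA and 4.46% held TGAGTCA. Of the 10 myeloid genes on the list used below, 8 had a window, and 4 of the 8 held GAGGAA and 1 held TGAGTCA. Of 10 genes on the list of metalloproteinases and Reck, 9 had a window, and 3 of the 9 held GAGGAA and 5 held TGAGTCA. The 4 genes printed were picked after the matches were seen, and a match is only a run of letters, with no binding measured.

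Of 10 myeloid leukocyte genes, 9 were called lower in P1 cells and none higher, and the same 9 were called lower under all 3 scalings. The list's median log2 fold change was -1.94, beside -0.22 over all gene models tested and -0.37 over the 417 tested in the regions where genes can be named. Counts over this and the other lists of nuclear genes stand beside 33.8% called lower and 4.08% called higher in those regions. All lists were chosen with earlier results of these data known, so their counts and medians only describe the members. The shares of the regions hold for the values as deposited. Of the 417, 62 were called lower and 35 higher after quantile normalization, and 53 lower and 38 higher after median scaling. Summed over the list, the level was 2962 to 3449 scaled reads in P1 libraries and 10616 to 14699 in P0 libraries of day 28. Fewer myeloid cells and less of this RNA per cell cannot be told apart in bulk samples.

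Cd72, a C-type lectin receptor of B cells and macrophages, had 51.9, 30 and 30 scaled reads in P1 cells, against 924, 636 and 852 in P0 cells of day 28. It lay on the floor in 2 of the 3 P1 libraries, and its log2 fold change was -4.46 ± 0.35 (SE, adjusted p = 1.97e-07). Exons of other genes cover 41.6% of its exon bases, and the library kit does not mark strand. Otulinl, a membrane-bound relative of the deubiquitinase Otulin that lacks its activity, had 50.4, 47.7 and 51.5 scaled reads in P1 cells and 847, 875 and 1262 in P0 cells of day 28 (log2 fold change -4.29 ± 0.28, adjusted p = 2.01e-08). The P1 libraries agree closely on it, and every one lies far under every P0 library. Tfec, a macrophage transcription factor of the family that governs lysosome genes, had 30, 31 and 30.9 scaled reads in P1 cells, at or just over the floor, against 288, 238 and 193 in P0 cells of day 28 (log2 fold change -2.95 ± 0.27, adjusted p = 9.05e-07).

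Atp6v0d2 encodes a subunit of the vacuolar proton pump found in macrophages and osteoclasts. It had 223, 301 and 277 scaled reads in P1 cells, against 1974, 1919 and 3414 in P0 cells of day 28 (log2 fold change -3.15 ± 0.42, adjusted p = 5.45e-05). Irf5, an interferon regulatory factor of myeloid cells, had 274, 176 and 212 scaled reads in P1 cells and 798, 645 and 1435 in P0 cells (log2 fold change -2.06 ± 0.30). Casp1, the caspase that activates interleukin-1 beta, had 197, 158 and 105 scaled reads in P1 cells and 528, 387 and 556 in P0 cells (log2 fold change -1.71 ± 0.24). The groups did not overlap in any of these 3 genes, and every P1 library lay below every P0 library in 22.9% of all gene models tested. Lyn, a Src-family kinase of leukocytes, had 937, 794 and 1081 scaled reads in P1 cells and 2588, 2483 and 2998 in P0 cells (log2 fold change -1.53 ± 0.14, adjusted p = 1.22e-06).

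Both myeloid proteases on the list fell as well. Mmp12, the elastase of macrophages, had 1474, 1393 and 1616 scaled reads in P1 cells against 3007, 3318 and 3854 in P0 cells of day 28 (log2 fold change -1.18 ± 0.23, adjusted p = 0.00193). Mmp8, the collagenase of neutrophils, was at 16, the value for no read, in all 3 P1 libraries and at 38.3, 56.9 and 83 in the P0 libraries, at least 1.89-fold lower when set against the floor of 30 (adjusted p = 0.00534). The uncalled member, the tetraspanin Tspan33, had 16, 16 and 30 scaled reads in P1 cells and 30, 59.2 and 51.7 in P0 cells.

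**Figure D1:**
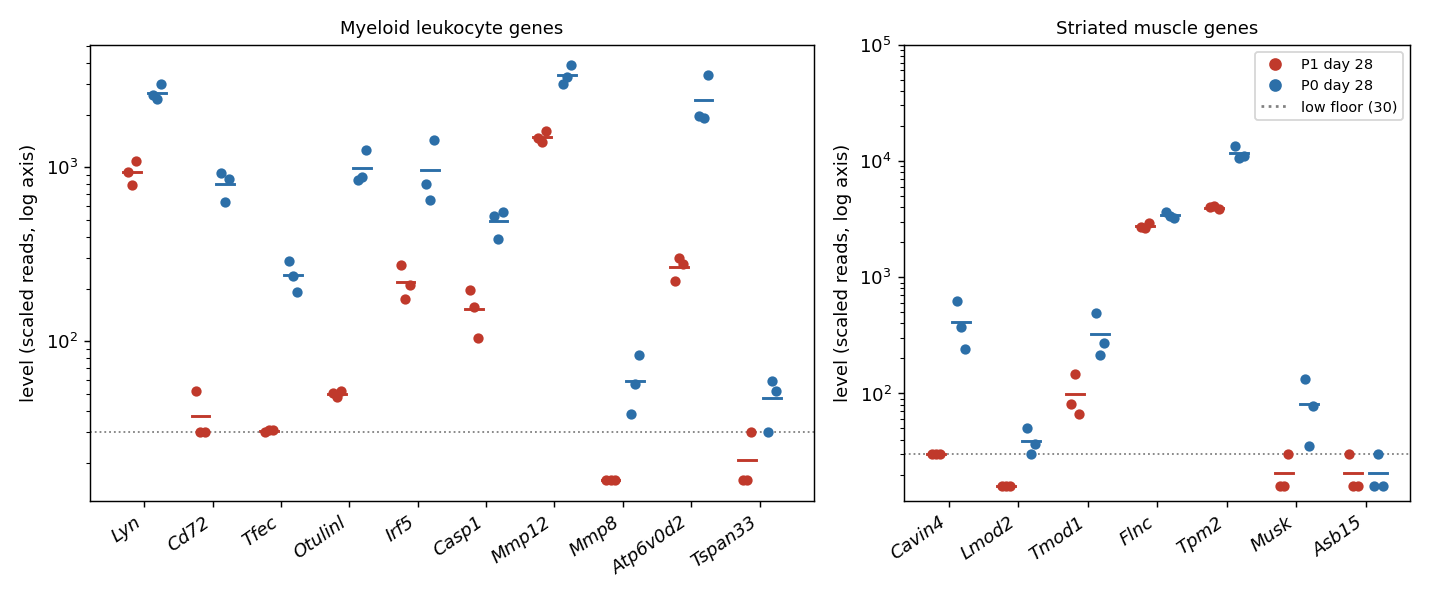
Level in each library, in scaled reads on a log axis, of the myeloid leukocyte genes (left) and the striated muscle genes (right), with P1 day 28 in red and P0 day 28 in blue. Short lines are group means and the dotted line is the floor of 30; Cd72, Tfec, Mmp8 and Cavin4 sit on or next to the floors in P1 cells, while Lyn and Mmp12 keep 794 scaled reads or more in every P1 library.

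For some of these genes the levels in P1 cells were near those of earlier days of primary culture. Cd72 had a median of 259 scaled reads in fresh cells, 30 on days 3 and 7, 181 on day 14 and 534 on day 21. Atp6v0d2 had medians of 16, 30, 47.5, 220 and 1910 scaled reads on days 0, 3, 7, 14 and 21, so that P1 cells with a median of 277 stood nearest to day 14. Lyn had a median of 1244 to 1298 scaled reads on days 3 to 14, above the P1 median of 937. Set against P0 cells of day 21 in place of day 28, with the same P1 libraries, the log2 fold changes of Cd72, Otulinl, Atp6v0d2, Tfec, Irf5, Casp1, Lyn and Mmp12 were -3.82, -4.11, -2.81, -2.85, -1.63, -1.48, -1.35 and -1.42.

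**Figure D2:**
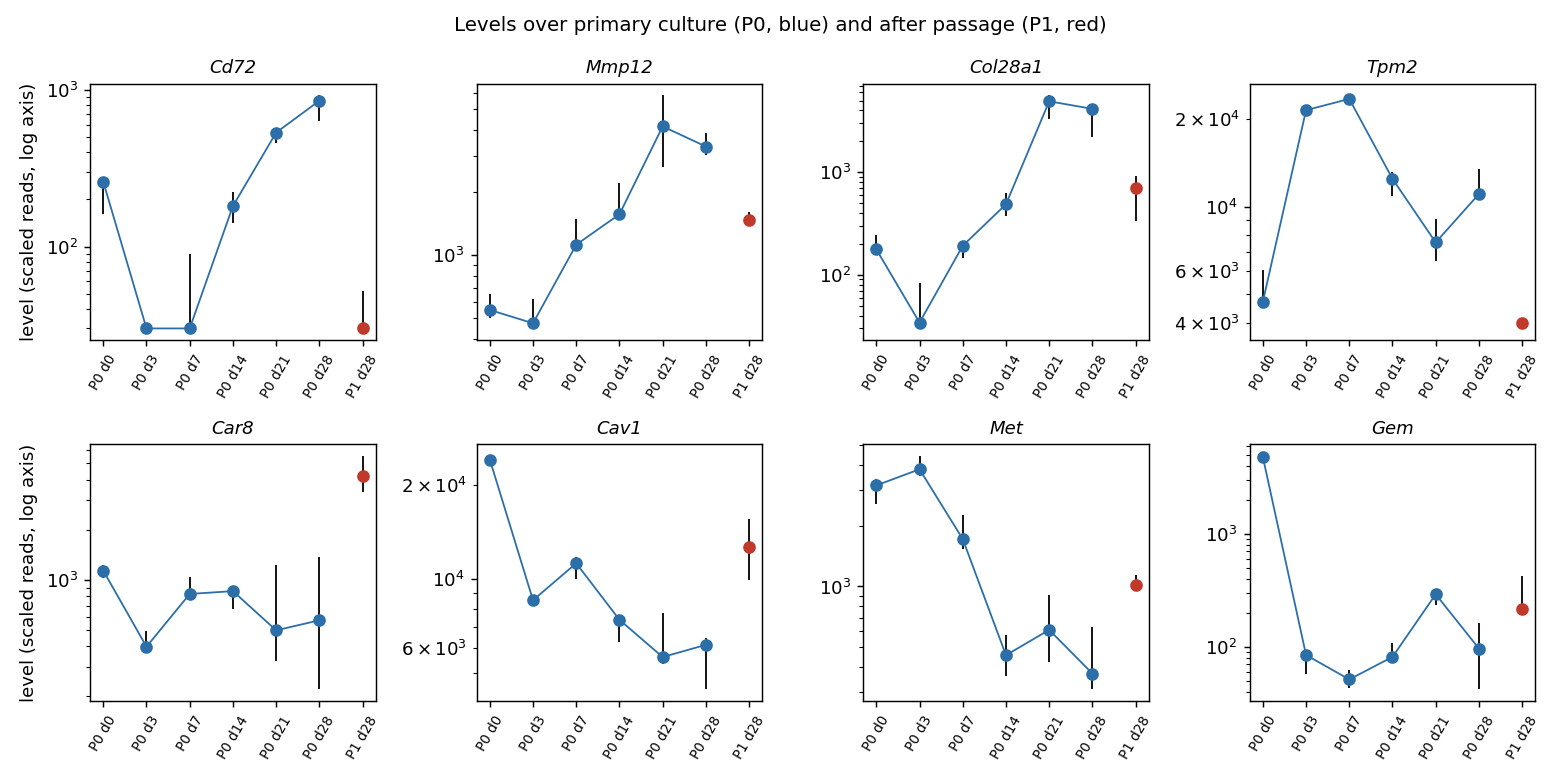
Levels of 8 genes, in scaled reads on log axes, on days 0 to 28 of primary culture (P0, blue) and after passage (P1 day 28, red); points are medians of 3 libraries and vertical lines run from the lowest to the highest. Cd72, Mmp12 and Col28a1 climb late in primary culture and are lower in P1 cells, while Car8 is higher in P1 cells than in any P0 group.

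Markers of other cell types that the culture could hold were also measured. Of 4 lymphocyte genes, Pax5 and Sit1 were at 16 in all 6 libraries, and neither Tox nor Bach2 was called. Of 11 epithelial genes, 6 were on a floor in all 6 libraries. Of the 11, 2 were called lower, none higher and 9 were not called. Their log2 fold changes ran from -1.83 to 0.60, with a median of -0.30. Coro2a, a coronin, had 30, 16 and 30 scaled reads in P1 cells and 90.4, 57.7 and 124 in P0 cells of day 28, at least 2.88-fold lower (adjusted p = 0.000252). Esrp1, an epithelial splicing factor, was called on values of 16 in P1 cells and 30 in P0 cells, both at or under the floor, so no fold is given, and its call was lost without any 1 of the 6 libraries. The adipocyte hormone gene Lep was at 16 in 5 of 6 libraries and at 30 in the other, and Aqp7, a glycerol channel of adipocytes, reached no more than 43.8 scaled reads. Hilpda, also on the adipocyte list, had 371 to 449 scaled reads in P1 cells and 487 to 588 in P0 cells of day 28. None of these 3 genes was called. Among 6 endothelial and mural genes only Gucy1a2, a guanylate cyclase subunit, was called, with 51.9, 44.5 and 70.3 scaled reads in P1 cells and 94.9, 122 and 95.9 in P0 cells. It was not called after quantile normalization (adjusted p = 0.333) or median scaling (0.213), or without any of 4 of the 6 libraries.

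The study is titled for cardiomyocyte differentiation of these cells, and genes of striated muscle were examined for that reason. Of 6 tested, 5 were called lower and none higher, with a median log2 fold change of -1.64. Cavin4, a coat protein of muscle caveolae, was at the floor of 30 in all 3 P1 libraries and had 623, 374 and 242 scaled reads in P0 cells of day 28, at least 12.8-fold lower (adjusted p = 5.39e-05). Tpm2, the beta chain of tropomyosin, which stiffens actin filaments, had 3976, 4071 and 3823 scaled reads in P1 cells and 13460, 10517 and 11042 in P0 cells (log2 fold change -1.55 ± 0.12, adjusted p = 2.21e-07). Both kept their calls under all 3 scalings and without any 1 of the 6 libraries. Over primary culture Tpm2 had a median of 4715 scaled reads in fresh cells, 23379 on day 7 and 7535 on day 21, so P1 cells lay below every P0 group. Cavin4 had medians of 115 on day 7 and 330 on day 21. Fibroblast-like cells also contract through tropomyosin, so Tpm2 does not mark striated muscle alone.

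Musk, the receptor kinase of the nerve-muscle junction, had 16, 16 and 30 scaled reads in P1 cells and 132, 35.4 and 77.6 in P0 cells of day 28. Lmod2, an actin filament nucleator of muscle, was at 16 in P1 cells and had 50.2, 30 and 36.6 scaled reads in P0 cells. It passed the filter of 3 libraries above 30 only through these P0 libraries, so its place among the genes called lower depended on the values compared. Neither Musk nor Lmod2 was called after quantile normalization or median scaling. Musk also lost its call without P1 replicate 1 or 2 or P0 replicate 1 or 3 (adjusted p = 0.0764 to 0.107). Flnc, the muscle filamin, had 2682, 2644 and 2904 scaled reads in P1 cells and 3624, 3343 and 3244 in P0 cells, a log2 fold change of -0.31 ± 0.08 that is close to the shift of all genes and became 0.02 after median scaling. Tmod1, which caps actin filaments, had 81.6, 146 and 66.5 scaled reads in P1 cells and 497, 215 and 270 in P0 cells, a log2 fold change of -1.73 ± 0.64 that was not called (adjusted p = 0.0846).

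Of 10 collagen and matrix glycoprotein genes tested, 6 were called lower and none higher, with a median log2 fold change of -0.78. Of the 6, 1 was called under all 3 scalings. That 1 was Col28a1, which encodes type XXVIII collagen and had 911, 701 and 335 scaled reads in P1 cells, against 2201, 4554 and 4147 in P0 cells of day 28 (log2 fold change -2.53 ± 0.40, adjusted p = 0.000345). Its median over primary culture was 34.2 scaled reads on day 3, 487 on day 14 and 4917 on day 21.

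Sdc2, a heparan sulfate proteoglycan, had 4905, 4636 and 3932 scaled reads in P1 cells and 7795, 7873 and 6443 in P0 cells (log2 fold change -0.71 ± 0.12, adjusted p = 0.000591). Adamts12, a secreted protease, changed by -0.83 ± 0.16, and Svep1 and Thsd7a, a pair of large adhesion proteins, by -0.78 ± 0.22 and -0.78 ± 0.23. Col1a2, a chain of type I collagen and a main product of fibroblasts, had 120137, 116869 and 86777 scaled reads in P1 cells and 124797, 133450 and 162540 in P0 cells (log2 fold change -0.38 ± 0.12, adjusted p = 0.032). Its change was 0.00 after quantile normalization and -0.05 after median scaling, and the call was lost without P1 replicate 3 (adjusted p = 0.164) or P0 replicate 3 (0.185). The calls of Svep1 and Thsd7a were also lost without either of these replicates (adjusted p = 0.08 to 0.112).

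Matrix metalloproteinases cut collagens and other matrix proteins, and most of their genes listed here lie in a cluster on chromosome 9. Of 8 tested, 5 were called lower and none higher, with a median log2 fold change of -1.33. The 5 include Mmp8 and Mmp12 of the myeloid list, and how the myeloid level bears on the others was not tested. Mmp27 had 46, 30 and 30 scaled reads in P1 cells and 227, 171 and 260 in P0 cells of day 28 (log2 fold change -2.64 ± 0.31, adjusted p = 1.56e-05). Its values of 30 are the floor, so the size of its fold depends on the floor. Mmp13, collagenase-3, had 151, 74.8 and 145 scaled reads in P1 cells and 534, 567 and 336 in P0 cells (log2 fold change -1.99 ± 0.37, adjusted p = 0.0013). Mmp3, stromelysin-1, had 3001, 2961 and 2409 scaled reads in P1 cells and 9032, 5460 and 9374 in P0 cells (log2 fold change -1.48 ± 0.36, adjusted p = 0.00979). The groups do not overlap in any of the 3 genes, beside 22.9% of all gene models tested in which P1 lay below P0 without overlap. The call of Mmp3 was lost after quantile normalization (adjusted p = 0.0503) and median scaling (0.0629) and without P0 replicate 3 (0.0511).

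Among uncalled members, Mmp10 had 53.4, 44.5 and 30 scaled reads in P1 cells and 73.9, 30 and 46.3 in P0 cells. Reck, a membrane protein that inhibits metalloproteinases, had 2214, 1762 and 1709 scaled reads in P1 cells and 1323, 1878 and 1626 in P0 cells (log2 fold change 0.24 ± 0.26, adjusted p = 0.641). In primary culture Mmp3 had medians of 184 scaled reads on day 7, 620 on day 14 and 10610 on day 21, while Mmp13 had 699 on day 7 and 640 on day 21. The P1 median of 145 for Mmp13 lay below every P0 group, and that of 2961 for Mmp3 lay between days 14 and 21.

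The list of lysosomal genes shares Atp6v0d2 and Tfec with the myeloid list, and how the myeloid level bears on its other genes was not tested. Of 8 tested, 6 were called lower, with a median log2 fold change of -0.86, and 4 were called under all 3 scalings. Rragd, a Rag GTPase that ties lysosomal nutrient sensing to mTORC1, had 128, 57.3 and 144 scaled reads in P1 cells and 580, 385 and 615 in P0 cells of day 28 (log2 fold change -2.34 ± 0.29, adjusted p = 3.2e-05). Ggh, the lysosomal hydrolase of folate polyglutamates, had 954, 802 and 845 scaled reads in P1 cells and 1619, 1771 and 2145 in P0 cells (log2 fold change -1.08 ± 0.14). Pip4p2, a phosphoinositide phosphatase of late endosomes and lysosomes, changed by -0.63 ± 0.13 and was not called under all 3 scalings. Atp6v1f, a proton pump subunit present in all cells, changed by only -0.39 ± 0.10, was not called after either rescaling, and lost its call without P1 replicate 2 (adjusted p = 0.0726) or P0 replicate 3 (0.0879). Laptm4b, a lysosomal membrane protein, had 1132, 891 and 1204 scaled reads in P1 cells and 1026, 1096 and 1111 in P0 cells (log2 fold change -0.01 ± 0.13, adjusted p = 1).

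Tbc1d2, a Rab GTPase-activating protein, had 60.1, 133 and 113 scaled reads in P1 cells and 590, 404 and 544 in P0 cells of day 28 (log2 fold change -2.39 ± 0.25). Retreg1, a receptor for the autophagy of endoplasmic reticulum, had 30, 62.8 and 91.9 scaled reads in P1 cells and 247, 223 and 321 in P0 cells (log2 fold change -2.23 ± 0.29). Its call was lost in the limma fit of the 6 libraries alone (adjusted p = 0.0707). Trim14, an adaptor of antiviral signalling, had 16, 31.8 and 30 scaled reads in P1 cells and 107, 110 and 232 in P0 cells (log2 fold change -2.49 ± 0.27), with 38% of its exon bases shared with other genes. Its P1 values lie on or just over the floors, so the size of its fold depends on them. Trim14, Irf5 and Casp1 were the 3 genes called among 11 of NF-kB, caspase and interferon signalling, and the list's median was -0.22. Birc2, an inhibitor of apoptosis, had 876, 802 and 891 scaled reads in P1 cells and 608, 791 and 657 in P0 cells and was called higher after quantile normalization and after median scaling but not as deposited (adjusted p = 0.262).

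Among the genes tested in the named regions, Car8 showed the largest rise that was called. It encodes a carbonic anhydrase-related protein without enzyme activity that binds the inositol trisphosphate receptor, and it had 4175, 3355 and 5537 scaled reads in P1 cells, against 572, 1364 and 221 in P0 cells of day 28 (log2 fold change 2.94 ± 0.49, adjusted p = 0.000509). The P0 libraries spread widely, yet the highest of them is well under the lowest P1 library. In fresh cells its median was 1138 scaled reads, and no P0 library of any day reached the P1 levels. The 17 genes called higher there were called under all 3 scalings, as were 143 of the 144 higher calls over all gene models tested. Both rescalings move log2 fold changes upward, so they could hardly end a higher call. Of the 17, 11 stayed called without any 1 of the 6 libraries.

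Caveolae are small pits of the plasma membrane built from caveolins, and both caveolin genes tested rose. Cav1, the main caveolin outside muscle, had 12644, 9926 and 15555 scaled reads in P1 cells and 6157, 6462 and 4442 in P0 cells of day 28 (log2 fold change 1.16 ± 0.16, adjusted p = 9.27e-05). Cav2, its partner, had 3167, 2815 and 3852 scaled reads in P1 cells and 2393, 2546 and 2200 in P0 cells (log2 fold change 0.45 ± 0.12, adjusted p = 0.0207), a call that was lost without P1 replicate 3 (adjusted p = 0.112) or P0 replicate 3 (0.094). Ctnnal1, alpha-catulin, a relative of the catenins, had 3146, 2081 and 3682 scaled reads in P1 cells and 661, 1252 and 717 in P0 cells (log2 fold change 1.78 ± 0.30, adjusted p = 0.000558). Myo10, the myosin of filopodia, had 3529, 2875 and 2521 scaled reads in P1 cells and 1634, 1824 and 1546 in P0 cells (log2 fold change 0.82 ± 0.11, adjusted p = 7.44e-05).

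Those 4 were the only members called higher among 17 genes of the actin cytoskeleton and adhesion, while 9 were called lower, 2 of them (Tpm2 and Cdh6) under all 3 scalings. Tpm2, Flnc and Lmod2 among the 9 are also on the striated muscle list, as is the uncalled Tmod1. Cadherins hold cells to each other. Cdh6 was on a floor in all 3 P1 libraries and had 134, 97.6 and 74.3 scaled reads in P0 cells of day 28, at least 3.3-fold lower (adjusted p = 6.39e-05). In P0 cells of day 21 Cdh6 had only 30 to 42.5 scaled reads, and against that day it was not called (adjusted p = 0.0637). Cdh10 had 30, 16 and 16 scaled reads in P1 cells and 80.3, 35.4 and 86.2 in P0 cells, at least 2.09-fold lower (adjusted p = 0.00971). Without P0 replicate 3 the adjusted p of Cdh10 was 0.0572. Tln1, the talin that couples integrins to actin, had 7069, 6912 and 6931 scaled reads in P1 cells and 10060, 9729 and 9917 in P0 cells, a log2 fold change of -0.51 ± 0.06 that became -0.22 after quantile normalization (adjusted p = 0.0166) and -0.18 after median scaling (adjusted p = 0.109). Capza2, an actin capping protein, changed by -0.27 ± 0.07 as deposited, 0.02 after quantile normalization and 0.06 after median scaling. Rai14 and Tes, a pair of actin-associated proteins, were called lower as deposited (-0.52 ± 0.11 and -0.35 ± 0.11) and under neither rescaling.

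**Figure D3:**
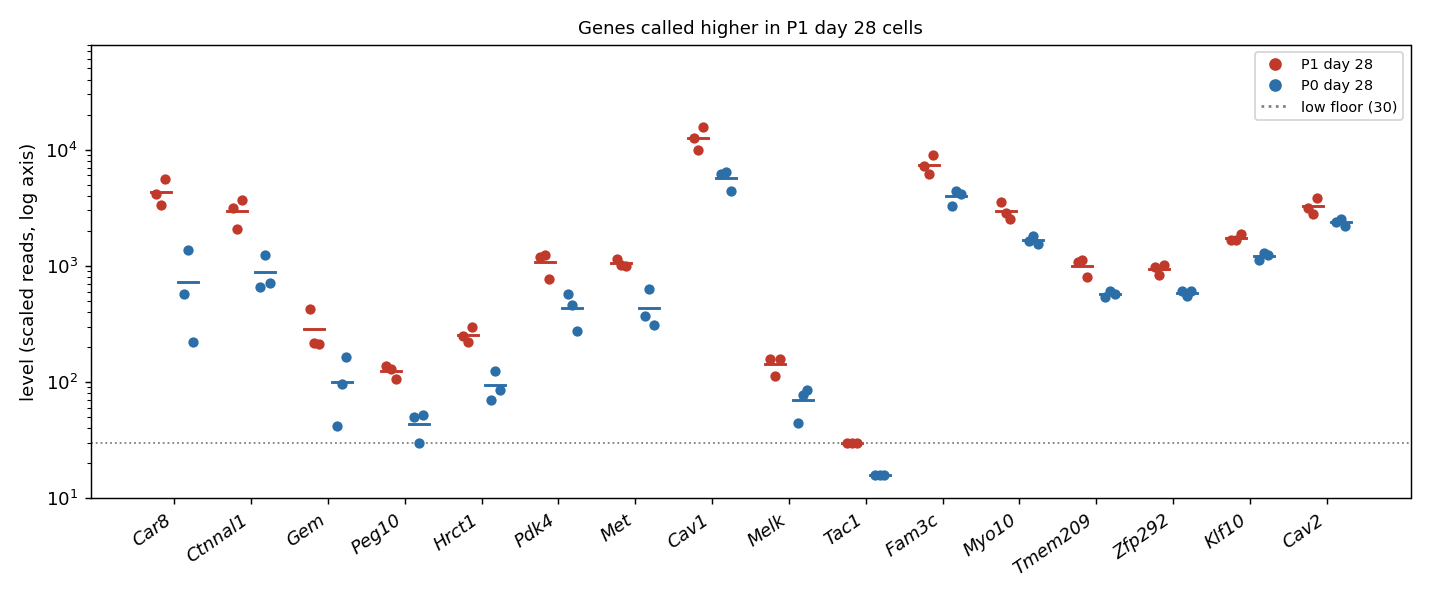
Level in each library, in scaled reads on a log axis, of 16 of the 17 genes called higher in P1 day 28 (red) than in P0 day 28 cells (blue), ordered by log2 fold change; short lines are group means and the dotted line is the floor of 30. The P1 points lie above the P0 points in every gene, beside 3.22% of all gene models tested, and Tac1 is on the floors in both groups.

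Genes of secreted signals and receptors moved both ways. Met, the receptor of hepatocyte growth factor, had 1142, 1020 and 994 scaled reads in P1 cells and 371, 630 and 310 in P0 cells of day 28 (log2 fold change 1.33 ± 0.27, adjusted p = 0.00261), and its median had been 3163 scaled reads in fresh cells and 457 on day 14. Fam3c, a secreted cytokine-like protein, had 7227, 6149 and 8942 scaled reads in P1 cells and 3264, 4421 and 4182 in P0 cells (log2 fold change 0.91 ± 0.13, adjusted p = 8.68e-05). On days 3 and 7 its medians were higher still, at 11140 and 12155 scaled reads.

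Tgfbr1, the type I receptor of TGF-beta, had 2033, 1837 and 1924 scaled reads in P1 cells, against 4083, 3896 and 4024 in P0 cells (log2 fold change -1.05 ± 0.09, adjusted p = 3.59e-07). Its spread within each group is small, and the P1 values are close to the medians of days 0 to 14, which were 1864 to 2269 scaled reads. Cntfr, the receptor of ciliary neurotrophic factor, was on a floor in all 3 P1 libraries and had 61.2, 117 and 183 scaled reads in P0 cells, at least 3.65-fold lower (adjusted p = 0.00229). Tmeff1, a transmembrane protein that dampens Nodal signalling, had 295, 220 and 230 scaled reads in P1 cells and 479, 767 and 1174 in P0 cells (log2 fold change -1.62 ± 0.37, adjusted p = 0.00649).

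Wnt2, a Wnt ligand, had 83.8, 126 and 258 scaled reads in P1 cells and 408, 316 and 305 in P0 cells (log2 fold change -1.29 ± 0.29, adjusted p = 0.00568) and missed the threshold after quantile normalization (adjusted p = 0.058) and median scaling (0.0525). Gdf6, a bone morphogenetic protein, Il11ra1, the receptor of interleukin-11, and Lpar1, a receptor of lysophosphatidic acid, were called as deposited, at -0.81 ± 0.26, -0.42 ± 0.13 and -0.57 ± 0.16, but not after either rescaling, and each lost its call without 3 or more of the 6 libraries. In all, 7 of 18 signalling genes were called lower and 2 higher, beside 33.8% lower and 4.08% higher in the named regions. The list's median was -0.21, beside -0.37 over the tested genes of those regions.

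The list of lipid, fuel and carbonic anhydrase genes held members that rose and members that fell. Pdk4, the kinase that shuts off pyruvate dehydrogenase when fat is burned, had 1193, 1247 and 773 scaled reads in P1 cells and 570, 459 and 273 in P0 cells of day 28 (log2 fold change 1.34 ± 0.26, adjusted p = 0.00181). Abca1, the cholesterol exporter, had 3092, 2889 and 3567 scaled reads in P1 cells and 5152, 6197 and 8293 in P0 cells (log2 fold change -1.02 ± 0.17, adjusted p = 0.000509). Car9, the hypoxia-induced carbonic anhydrase of the cell surface, was at 30 in all 3 P1 libraries and had 106, 99.9 and 198 scaled reads in P0 cells, at least 4.27-fold lower (adjusted p = 0.00087). Aldh1b1, a mitochondrial aldehyde dehydrogenase, had 60.8, 31.8 and 30 scaled reads in P1 cells, the last on the floor, and 195, 168 and 282 in P0 cells (log2 fold change -2.44 ± 0.36, adjusted p = 0.000182). Ptgr1, a prostaglandin reductase, had 566, 534 and 522 scaled reads in P1 cells and 1033, 1046 and 912 in P0 cells (log2 fold change -0.88 ± 0.11). Of the 17 genes on the list, which also holds transporters, a lipid droplet protein and the inactive Car8, 7 were called lower and 2 higher. The 2 were Pdk4 and Car8. The calls of Abca1, Car9, Aldh1b1 and Ptgr1 were made under all 3 scalings. Asns, Aco1 and Pon2 fell by 0.53, 0.57 and 0.43 on the log2 scale as deposited and were not called after median scaling. Hilpda, a lipid droplet protein raised in hypoxia, had 449, 371 and 427 scaled reads in P1 cells and 487, 568 and 588 in P0 cells (adjusted p = 0.0686).

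**Figure D4:**
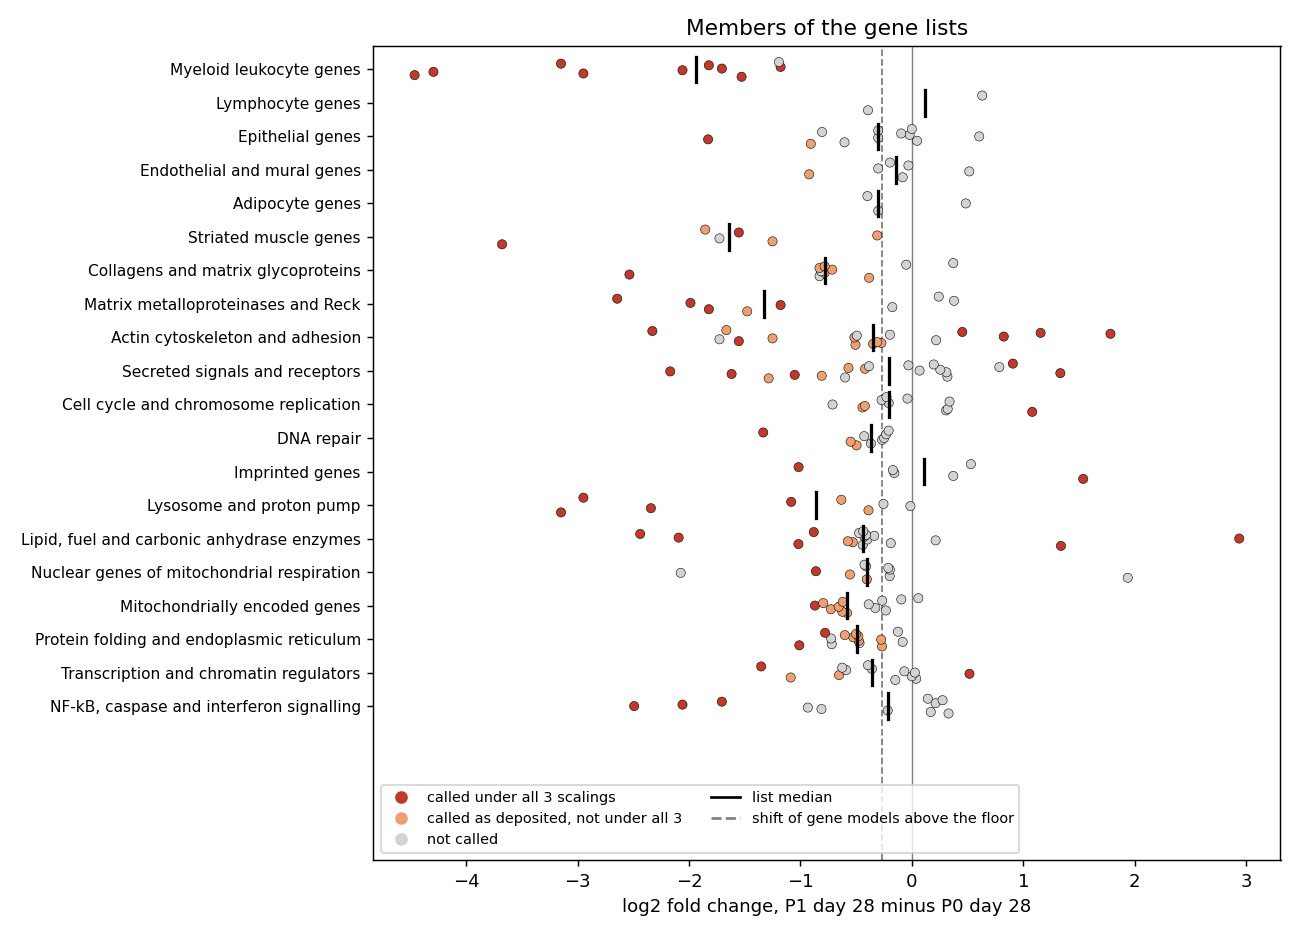
Log2 fold change (P1 day 28 minus P0 day 28) of each tested member of the 20 gene lists, coloured by whether it was called under all 3 scalings, as deposited but not under all 3, or not at all. Black bars are list medians and the dashed line is the shift of -0.27; the myeloid, striated muscle and metalloproteinase lists have medians of -1.94, -1.64 and -1.33, and most other medians lie near the dashed line.

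The 13 protein genes of the mitochondrial genome summed to 171515 to 246194 scaled reads in P1 libraries and 266070 to 332201 in P0 libraries of day 28, and their share of all levels above the floor was 7.04% to 8.94% in P1 cells and 8.66% to 9.47% in P0 cells. Of the 13, 7 were called lower and none higher, beside 12.9% called lower and 1.85% called higher over all gene models tested. In the named nuclear regions, the shares were 33.8% lower and 4.08% higher. Their median log2 fold change was -0.58 as deposited, beside -0.22 over all gene models tested. After median scaling it was -0.25, beside 0.11 over all gene models tested. The 7 were 5 subunits of complex I (mt-Nd1, mt-Nd2, mt-Nd4, mt-Nd5 and mt-Nd6) and 2 of cytochrome oxidase (mt-Co1 and mt-Co2). Only mt-Nd6 was called under all 3 scalings. It had 5310, 4095 and 4844 scaled reads in P1 cells and 7793, 7651 and 10787 in P0 cells (log2 fold change -0.87 ± 0.18, adjusted p = 0.00262), and it is the sole protein gene of the light strand. For mt-Co1 the values were 51040, 33890 and 38886 scaled reads in P1 cells and 65623, 62741 and 85420 in P0 cells (log2 fold change -0.80 ± 0.18).

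The calls of mt-Nd1, mt-Nd2, mt-Nd5 and mt-Co2 were lost without P1 replicate 2 (adjusted p = 0.086 to 0.155) and without P0 replicate 3 (0.075 to 0.152). The uncalled mt-Atp8, a subunit of ATP synthase, had 3654, 2951 and 3457 scaled reads in P1 cells and 3090, 3336 and 3206 in P0 cells, a change of 0.06 as deposited (adjusted p = 0.851) that was called higher after quantile normalization and median scaling. The ribosomal RNA mt-Rnr1 had 5927, 4616 and 5037 scaled reads in P1 cells and 3792, 3217 and 2849 in P0 cells (log2 fold change 0.66 ± 0.26, adjusted p = 0.109), and mt-Rnr2 changed by 0.11 ± 0.21. Differences between these RNAs in the size of the change were not tested.

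**Figure D5:**
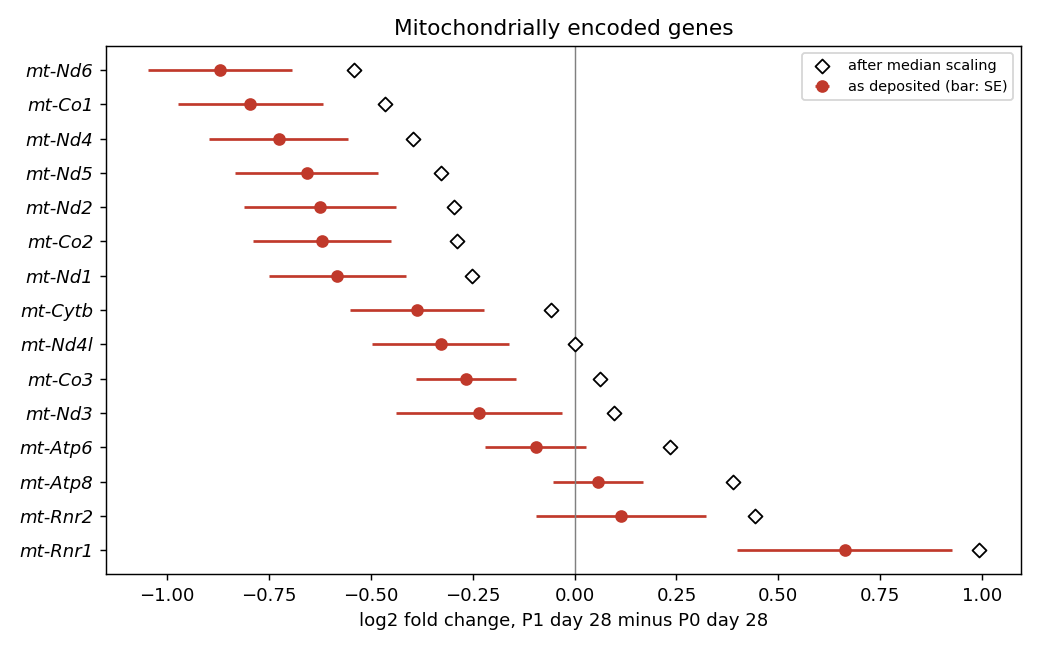
Log2 fold change (P1 day 28 minus P0 day 28) of the 13 mitochondrial protein genes and the ribosomal RNAs as deposited (red, bars are SE) and after median scaling (open diamonds). Values run down the axis from -0.87 for mt-Nd6 at the top to 0.66 for mt-Rnr1 at the bottom, and median scaling moves every one to the right.

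Among 10 nuclear genes of respiration, 3 were called lower and none higher, a share near the 33.8% called lower in the named regions. Coq3, a methyltransferase of ubiquinone synthesis, had 270, 246 and 300 scaled reads in P1 cells and 564, 452 and 468 in P0 cells of day 28 (log2 fold change -0.86 ± 0.14, adjusted p = 0.000509) and was called under all 3 scalings. Ndufb6, a subunit of complex I, changed by -0.40 ± 0.09, and Ndufaf6, an assembly factor, by -0.56 ± 0.17. Neither was called after rescaling, 39% of the exon bases of Ndufb6 lie in exons of another gene, and Ndufaf6 lost its call without any of 5 libraries.

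Of 14 genes of protein folding and the endoplasmic reticulum, 9 were called lower, with a median log2 fold change of -0.49. Asph, an aspartate hydroxylase of the reticulum, had 3347, 3037 and 3025 scaled reads in P1 cells and 4835, 5636 and 5698 in P0 cells of day 28 (log2 fold change -0.78 ± 0.11, adjusted p = 7.06e-05). Dnajb5, a co-chaperone of Hsp70, had 366, 308 and 366 scaled reads in P1 cells and 745, 650 and 695 in P0 cells (log2 fold change -1.01 ± 0.20). These 2 were called under all 3 scalings. Creb3, Vcp, Txn1 and Sec61b changed by -0.60, -0.53, -0.48 and -0.48, and after median scaling by -0.27, -0.20, -0.15 and -0.15, where Vcp alone was called (adjusted p = 0.0328). Erp44 and Dnaja1 changed by -0.28 and -0.27 as deposited and by 0.05 and 0.06 after median scaling.

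Melk, a kinase of dividing cells, had 157, 113 and 159 scaled reads in P1 cells and 44.7, 77.6 and 86.2 in P0 cells of day 28 (log2 fold change 1.08 ± 0.33, adjusted p = 0.0376). Its call was lost without P1 replicate 1 (adjusted p = 0.1) or 3 (0.112) or P0 replicate 1 (0.149), and its median on day 3 had been 901 scaled reads. Among 11 cell cycle genes it alone was called higher, while Ccnc, cyclin C, and Orc3, a subunit of the origin recognition complex, were called lower as deposited and not after rescaling. Smc2, a condensin subunit, had 500, 494 and 604 scaled reads in P1 cells and 262, 683 and 440 in P0 cells (adjusted p = 0.523).

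Trp53inp1, a gene induced by p53 that acts in stress responses and autophagy, had 2048, 2282 and 2462 scaled reads in P1 cells, against 6303, 5115 and 5718 in P0 cells (log2 fold change -1.33 ± 0.12, adjusted p = 9.35e-07). Of 9 genes of DNA repair and damage response, 3 were called lower, a share near the 33.8% of all genes tested in the named regions. Trp53inp1 was the 1 called under all 3 scalings. Nbn, of the complex that senses double-strand breaks, and Rad23b, of nucleotide excision repair, changed by -0.50 ± 0.13 and -0.55 ± 0.14 and were not called after rescaling.

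Of 6 imprinted genes tested, 1 was called higher and 1 lower. Peg10, a gene derived from a retrotransposon and expressed from the paternal copy, had 138, 130 and 106 scaled reads in P1 cells and 50.2, 30 and 51.7 in P0 cells of day 28, where 1 library was on the floor (log2 fold change 1.54 ± 0.26, adjusted p = 0.000573). Its neighbour Sgce, which shares that imprint, had 4125, 3626 and 3071 scaled reads in P1 cells and 2666, 2751 and 2895 in P0 cells, a change of 0.37 ± 0.14 that was called higher after both rescalings and not as deposited (adjusted p = 0.079). Tfpi2, a serine protease inhibitor of the matrix, had 202, 135 and 277 scaled reads in P1 cells and 365, 378 and 455 in P0 cells (log2 fold change -1.02 ± 0.21, adjusted p = 0.00248).

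Among 13 regulators of transcription and chromatin, 1 was called higher and 3 lower. Klf10, a zinc finger gene induced by TGF-beta, had 1675, 1669 and 1888 scaled reads in P1 cells and 1134, 1282 and 1240 in P0 cells of day 28 (log2 fold change 0.52 ± 0.10, adjusted p = 0.00151). Against P0 cells of day 21 its change was -0.21 (adjusted p = 0.171), where its median was 2018 scaled reads. Chd7, a chromatin remodeller, had 136, 64.4 and 142 scaled reads in P1 cells and 177, 252 and 461 in P0 cells (log2 fold change -1.35 ± 0.30, adjusted p = 0.00499). Klf4 and Osr2, transcription factors of stromal progenitors, changed by -0.65 ± 0.19 and -1.09 ± 0.35, and neither was called after rescaling.

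The remaining genes among the 15 largest rises belong to no list above. Gem, a small GTPase that inhibits calcium channels, had 425, 216 and 211 scaled reads in P1 cells and 42, 96.1 and 163 in P0 cells of day 28 (log2 fold change 1.63 ± 0.37, adjusted p = 0.00596). Its median was 4779 scaled reads in fresh cells and 291 on day 21, and against day 21 the change was -0.06 (adjusted p = 1). Hrct1 had 248, 223 and 299 scaled reads in P1 cells and 70.3, 125 and 86.2 in P0 cells (log2 fold change 1.48 ± 0.29, adjusted p = 0.00214). Zfp292, a zinc finger protein, and Tmem209, a nuclear envelope protein, changed by 0.67 ± 0.17 and 0.79 ± 0.25. Zfp292 lost its call without P1 replicate 3 (adjusted p = 0.0556), and Tmem209 without any of 5 libraries (0.065 to 0.145). Tac1 was called on values of 30 in P1 cells and 16 in P0 cells, both at or under the floor, so no fold is given, and its call was lost without P1 replicate 2 (adjusted p = 0.0554) or 3 (0.0519) or P0 replicate 3 (0.0598).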

How the data were processed

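The values are log2 levels of 30961 gene models in 21 libraries, which the authors deposited as a single table centred on each gene model. Per the labels' protocols, 15 ng of total RNA went into cDNA amplification with a kit that does not mark strand; which of 2 RNA extraction kits served each library is not stated; per the submitters' processing notes, the build was GRCm39. For the aligner, the counting and the scaling, nothing is given in the sources used here. From the table's repeated lowest values, read as 16 and 30, library factors and the levels of 30467 gene models were recovered; of 14423 low values, 100% were whole reads within 0.1 read. Reads under the floor are missing, so no count test was run and the full depth is unknown. GENCODE M21 (GRCm38) served for names and exon overlaps. Gene models above 30 in at least 3 libraries entered limma 3.58.1 with a trend (R 4.3.3), with the 7 groups as factor and Benjamini-Hochberg adjustment over all of them; the rest used Python 3.11.15 with matplotlib 3.10.9, pandas 2.3.3 and numpy 2.4.6. The regions, lists and members were chosen with earlier results of these data known. Genes were named from the 15 largest called changes in each direction, the called list members and up to 4 uncalled members a list; the mitochondrial ribosomal RNAs were added after their values were seen. The recovery and fit were tested on simulated data.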

Additional observations from a re-analysis of the deposited data

How the results depend on the processing

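Among 16 alternatives, the number of calls left a range of 1.5 times around 1144 only in the fit of the 6 libraries alone, with 528, and without P0 day 28 replicate 3; leaving out 1 library gave 748 to 1071. The distinct list members called numbered 90, and 58 after median scaling, 42 in the fit of the 6 libraries alone and 65 to 84 with 1 library left out. Signs reversed for Flnc (0.02), Capza2 (0.06), Dnaja1 (0.06) and Erp44 (0.05) after median scaling, for Capza2 (0.02) and Erp44 (0.11) after quantile normalization, and for Gem (-0.06) and Klf10 (-0.21) against P0 cells of day 21; the cause was not tested. Of 163 genes that the naming rule took, quantile normalization ended the calls of 35 that kept their sign and of the 2 that reversed, median scaling those of 40 and of the 4 that reversed, and the fit of the 6 libraries alone those of 52. Retreg1, Rai14 and Cdh10 were among the 52 (adjusted p = 0.0707, 0.107 and 0.135). Set against P0 cells of day 21, 15 calls that kept their sign were lost, Cdh6 among them, besides the 2 that reversed. In that comparison 11 uncalled genes became called. Of the 90 called members, 44 were called under all 3 scalings and 59 without any 1 of the 6 libraries. Calls not yet described as resting on 1 library were lost without P1 replicate 1 for Flnc, Tes, Thsd7a, Ccnc, Rad23b, Dnaja1, Osr2 and Klf4, without P1 replicate 2 for Flnc, Tes, Capza2, Ccnc, Orc3, Nbn, Dnaja1, Erp44, Osr2 and Klf4, and without P1 replicate 3 for Orc3, Erp44, Osr2, mt-Nd1, mt-Nd5 and mt-Co2. They were lost without P0 day 28 replicate 1 for Flnc, Tes, Ccnc, Dnaja1, Erp44 and Osr2, without replicate 2 for Tes, Svep1, Thsd7a, Ccnc, Orc3, Nbn, Rad23b, Dnaja1, Erp44 and Osr2, and without replicate 3 for Capza2, Ccnc, Orc3, Rad23b, Dnaja1, Erp44, Osr2 and Klf4; the adjusted p then lay between 0.0507 for Nbn and 0.233 for Dnaja1. A replicate block left 1078 calls in all and 87 among list members. Deviations of same-numbered libraries correlated at 0.10, 0.08 and 0.02, which does not reach the 0.1 set for pairing in every pair, and whether same-numbered libraries share animals or dishes is not stated. The floor limits genes below 30 scaled reads, which is 32 to 40.5 reads in P1 libraries and 27.8 to 39 in P0 libraries of day 28.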

Other observations

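A few genes differed widely among libraries of 1 group. Ndufa5, a subunit of complex I, had 933, 16 and 1122 scaled reads in P1 cells and 16, 16 and 1165 in P0 cells of day 28; it was at the value for no read in 3 of the 6 libraries and far above the floor in the others. Cox6c, a subunit of cytochrome oxidase, had 1434, 1524 and 30 scaled reads in P1 cells and 1603, 1745 and 1752 in P0 cells. Neither was called: the log2 fold change was 1.94 ± 2.44 for Ndufa5 (adjusted p = 0.693) and -2.07 ± 1.78 for Cox6c (adjusted p = 0.538). Map3k7, the kinase TAK1, had 444, 923 and 1692 scaled reads in P1 cells and 759, 2292 and 2153 in P0 cells (adjusted p = 0.451). Otulin, a deubiquitinase of linear chains, had 58.6, 135 and 328 scaled reads in P1 cells and 74.8, 390 and 621 in P0 cells (adjusted p = 0.631).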
